A study of Mus musculus with 6 samples.

Results

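The messages described here encode the core proteins of the spliceosomal small nuclear ribonucleoproteins (snRNPs) in mouse embryonic stem cells of the line E14. The 41 genes were taken from a list of Sm and Lsm proteins, proteins specific to the U1, U2 and U5 particles and the U4/U6.U5 tri-snRNP, both U2AF subunits and a pair of Prp19 complex proteins. All 41 were found by symbol among 51912 genes, and all 41 passed the low-count filter. The tested libraries were 3 eluates (labelled RAPIDASH eluate) from a resin charged with cysteine, and they were set against 3 sucrose cushion pellets. All cells were unmodified E14 cells given cycloheximide, an elongation inhibitor that holds ribosomes on messages, and lysed. One portion of each resuspended cushion pellet went straight to RNA extraction and another to the resin, so every eluate had also passed the cushion. Poly(A) RNA was sequenced, and the comparison shows how the resin step shifts the makeup of messages left by the cushion. Nothing in the labels says whether replicates were separate cultures, and the spread behind each p-value may be technical.

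The spliceosome removes introns from precursor messages in the nucleus. Sm proteins form a ring around the U1, U2, U4 and U5 RNAs, Lsm proteins form a like ring on U6, and larger proteins recognise the splice sites, hold the catalytic RNA in place or unwind RNA helices. The messages for these proteins are translated by ribosomes in the cytoplasm, and their abundance in a ribosome preparation is what was measured here; splicing itself was not. A message that is less abundant in a library may be bound by fewer ribosomes or be recovered less well, and these cannot be told apart in such bulk samples.

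Libraries held 1.002e+07 to 1.16e+07 estimated read counts in the eluates and 7.84e+06 to 1.04e+07 in the pellets. The first principal component placed the eluates at 30.5 to 41.8 and pellets 1 to 3 at -19.1, -42.9 and -45.3, which sets pellet 1 apart from its group. All 10 stem cell markers were detected, with summed levels of 11932 to 12278 CPM (counts relative to library size, scaled with TMM factors) in the eluates and 9646 to 9978 CPM in pellets. They did not move as one: 5 were called higher, 2 lower and 3 neither, with a median log2 fold change of eluate over pellet of 0.08. Of all genes tested, 24.5% were higher and 28.2% lower. The 8 fibroblast markers summed to 17.8 to 24.9 CPM in eluates against 12.4 to 16.1 CPM in pellets, with 1 of them at 0 in every library. Thy1, which was called higher (adjusted p = 0.0013), made up most of that sum, with a mean of 17.3 ± 2.88 CPM for eluates and 10.6 ± 1.40 CPM for pellets (SD, n = 3 each). The 10 markers of differentiation summed to 35.8 to 39.1 CPM in eluates against 32.2 to 36.2 CPM in pellets. The part of these markers in the results below was not tested.

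The 4 coding sequences below, all read from GENCODE transcripts of build GRCm38, show how much base composition varies over coding stretches of nearly the same length. Each is printed in lower case from its start codon, and capitals mark a G or C at the third position of a codon. Lsm2 and Lsm5 encode members of the same ring, and Sf3b5 and Sf3b1 encode a very small and a very large subunit of the same U2 subcomplex, SF3b. Lsm2, Lsm5 and Sf3b5 are complete, at 288, 276 and 261 nt. Of Sf3b1, whose coding sequence has 3915 nt, the first 261 bases are shown. The genes lie on chromosomes 17, 6, 10 and 1.
Lsm2: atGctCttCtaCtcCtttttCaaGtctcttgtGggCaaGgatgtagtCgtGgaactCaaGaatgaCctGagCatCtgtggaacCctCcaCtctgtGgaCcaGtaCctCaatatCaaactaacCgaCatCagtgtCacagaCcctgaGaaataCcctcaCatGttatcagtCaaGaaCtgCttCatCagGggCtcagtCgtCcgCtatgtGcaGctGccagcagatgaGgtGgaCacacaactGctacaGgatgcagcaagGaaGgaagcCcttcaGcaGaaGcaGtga
Lsm5: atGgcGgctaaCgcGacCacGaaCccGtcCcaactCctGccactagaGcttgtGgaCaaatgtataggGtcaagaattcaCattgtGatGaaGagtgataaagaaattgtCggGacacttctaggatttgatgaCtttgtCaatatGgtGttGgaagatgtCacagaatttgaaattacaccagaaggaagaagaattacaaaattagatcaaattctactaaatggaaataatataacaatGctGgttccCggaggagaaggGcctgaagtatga
Sf3b5: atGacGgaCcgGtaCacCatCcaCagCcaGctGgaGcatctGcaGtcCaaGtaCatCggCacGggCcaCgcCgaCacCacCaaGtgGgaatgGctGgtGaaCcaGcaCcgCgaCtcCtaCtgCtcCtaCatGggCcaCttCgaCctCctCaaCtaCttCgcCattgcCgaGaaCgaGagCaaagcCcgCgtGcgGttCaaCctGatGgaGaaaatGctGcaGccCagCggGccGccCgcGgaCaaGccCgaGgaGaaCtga
Sf3b1: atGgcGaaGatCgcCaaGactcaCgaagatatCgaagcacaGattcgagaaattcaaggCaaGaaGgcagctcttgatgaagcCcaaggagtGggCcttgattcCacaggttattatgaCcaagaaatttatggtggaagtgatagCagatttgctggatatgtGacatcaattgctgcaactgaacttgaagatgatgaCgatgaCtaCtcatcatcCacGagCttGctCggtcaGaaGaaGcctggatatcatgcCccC
A G or C stands at the third position of 62 of 96 codons in Lsm2, 31 of 92 in Lsm5, 81 of 87 in Sf3b5 and 32 of the first 87 in Sf3b1.

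Of the 41 messages, 18 were higher and 11 lower in the eluates, and 12 did not pass the test (edgeR's quasi-likelihood test with Benjamini-Hochberg adjustment over all genes, adjusted p under 0.05). Among all 13231 genes tested, 24.5% were higher and 28.2% lower, so the share of members that were higher, 43.9%, was above the background and the share that were lower, 26.8%, was close to it. The groups did not overlap for 29 members, against 60.3% of all genes. The median log2 fold change of eluate over pellet was 0.15 for the members and 0.0035 for all genes. Members ran from -1.35 for Sf3b1 to 0.89 for Snrpc. Without pellet 1, the library that stood apart, 19 members were higher and 11 lower, and without eluate 3 the counts were 18 and 7. Upper-quartile scaling gave 20 higher and 6 lower. Of all genes, 3241 were higher and 3736 lower in the main fit, 3722 and 4039 without pellet 1, and 2720 and 3304 without eluate 3. With upper-quartile scaling 4055 of all genes were higher and 3184 lower, and their median was 0.094.

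Short and long members parted. Of the 15 Sm and Lsm messages, with coding sequences of 231 to 696 nt, 8 were higher, none was lower and 7 did not pass, with a median log2 fold change of 0.25. Of the 13 other members with a coding sequence of at least 1500 nt, called long factors here, 1 was higher, 10 were lower and 2 did not pass, with a median of -0.24. The remaining 13 members, of 261 to 1482 nt, had 9 higher (69.2%), 1 lower (7.69%) and 3 not passing, with a median of 0.42. Over all nuclear coding genes tested, 46.1% of those under 450 nt were higher and 7.48% lower, with a median of 0.29. Of those from 450 nt to under 1500 nt, 33.7% were higher and 18.5% lower. Their median was 0.15, against 0.42 for the remaining 13 members, of which Sf3b5 and Sf3b6 are shorter than 450 nt. Of those of 1500 nt or more, 12.8% were higher and 44.6% lower, with a median of -0.26. The medians of the Sm and Lsm messages and of the long factors were thus close to those of all genes of like coding length. The shares called were less alike for the long factors, of which 76.9% were lower, against 44.6%. Of the Sm and Lsm messages 53.3% were higher, against 46.1%.

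Added up, Sm and Lsm messages held 3620, 3842 and 3528 CPM in eluates 1 to 3 and 2641, 3063 and 2827 CPM in pellets 1 to 3. Long factors held 1784, 1660 and 1543 CPM in eluates 1 to 3 and 2244, 2168 and 2123 CPM in pellets 1 to 3. Neither sum overlapped between groups. Sm and Lsm counts were 2.03, 2.31 and 2.29 times those of the long factors in the eluates and 1.18, 1.41 and 1.33 times in the pellets (2.21 ± 0.157 and 1.31 ± 0.120, SD, n = 3 each).

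**Figure D1:**
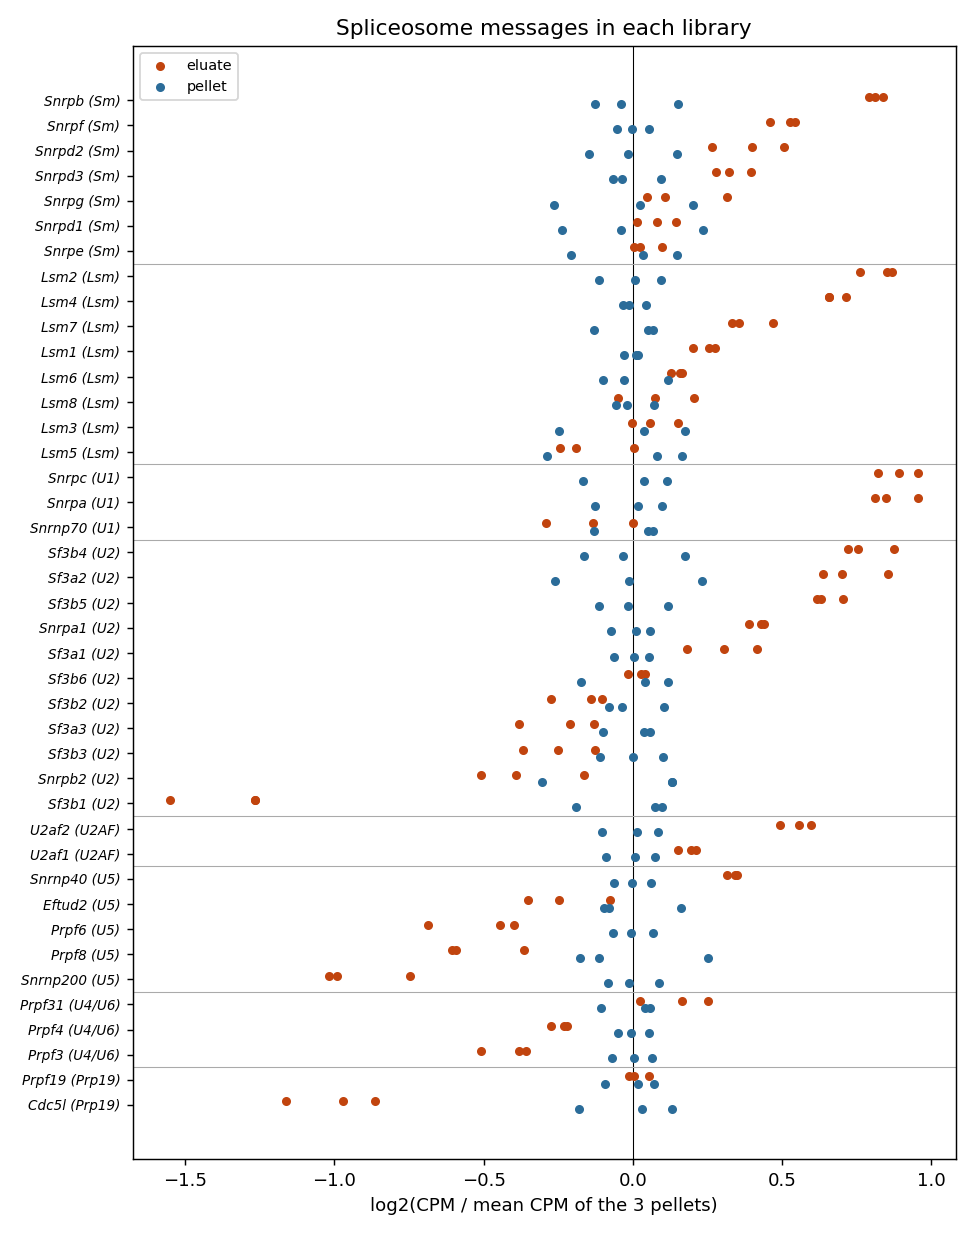
Each point is 1 library: the horizontal axis gives the log2 ratio of a message's CPM to the mean CPM of the 3 pellets, and messages are grouped by particle. Eluates of most Sm, Lsm and U1 messages lie at or right of 0, while eluates of Sf3b1, Cdc5l and Snrnp200 lie far left of every pellet.

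The Sm ring messages were higher or did not pass. Snrpb encodes SmB, the largest Sm protein, and had 465, 456 and 450.4 CPM in eluates 1 to 3, against 289, 253 and 238 CPM in pellets 1 to 3. Its groups were far apart, at a log2 fold change of 0.81 ± 0.073 (SE, here and below; adjusted p = 4.01e-07). Snrpf, for SmF, had 256, 271 and 268 CPM in eluates against 179, 193 and 186 CPM in pellets. It rose by 0.51 ± 0.064 (adjusted p = 8.78e-06), and its transcript has a GC content of 41.3%. Snrpd2, for SmD2 and the most abundant member in CPM, had 707, 761 and 644 CPM in eluates against 485, 593 and 529.7 CPM in pellets. The lowest eluate of Snrpd2 was above the highest pellet, with a change of 0.39 ± 0.082 (adjusted p = 0.000903). Snrpd3, for SmD3, rose by 0.33 ± 0.067 (eluates 349.9 ± 14.5 and pellets 278 ± 16.6 CPM, SD, n = 3 each; adjusted p = 0.000595).

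The other Sm messages, Snrpe, Snrpd1 and Snrpg for SmE, SmD1 and SmG, overlapped between groups. Snrpe had 245, 257 and 241 CPM in eluates 1 to 3 and 209, 267 and 246 CPM in pellets 1 to 3. Its log2 fold change was 0.04 ± 0.081 (adjusted p = 0.691), with a 95% interval of -0.13 to 0.22 from limma voom. For Snrpd1 the change was 0.08 with an interval of -0.13 to 0.31, and for Snrpg 0.16 with an interval of -0.10 to 0.44. In all 3 messages pellet 1 was the lowest library. Without pellet 2 both Snrpd1 and Snrpg were called higher, at 0.22 (adjusted p = 0.0376) and 0.28 (adjusted p = 0.0374).

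Of the 8 Lsm messages 4 were higher and 4 did not pass. Lsm2 to Lsm8 form the ring on U6 RNA, and Lsm1 replaces Lsm8 in a cytoplasmic ring that promotes decay of messages. Lsm2, with the first sequence above, had 128, 127 and 119 CPM in eluates 1 to 3 and 70.5, 75.0 and 64.9 CPM in pellets 1 to 3. Every eluate lay far above every pellet, and the log2 fold change was 0.83 ± 0.077 (adjusted p = 5.62e-07). Lsm4 had 326, 339 and 325 CPM in eluates against 213, 202 and 205 CPM in pellets, a change of 0.68 ± 0.062 (adjusted p = 4.84e-07). Lsm7 rose by 0.39 ± 0.073 (eluates 223 ± 11.6 and pellets 170.3 ± 12.7 CPM; adjusted p = 0.000321). Lsm1 rose by 0.25 ± 0.077 (adjusted p = 0.0135), and its call was lost without eluate 1 or 2 (adjusted p = 0.0506 and 0.051).

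Lsm5, the second sequence above and the member with the lowest GC content, had 72.9, 83.4 and 70.3 CPM in eluates 1 to 3 and 68.2, 93.3 and 88.0 CPM in pellets 1 to 3. Pellet 1 lay below every eluate and pellets 2 and 3 above them. Its log2 fold change was -0.14 ± 0.111 (adjusted p = 0.31; 95% interval -0.38 to 0.11), and without pellet 1 it was called lower at -0.27 (adjusted p = 0.00225). Lsm3, Lsm8 and Lsm6 had log2 fold changes of 0.07, 0.08 and 0.15, none called. Lsm6 did not overlap between groups, at 98.1, 100.5 and 100.0 CPM in eluates against 83.6, 97.4 and 87.9 CPM in pellets (adjusted p = 0.111), and it was called higher without pellet 2, at 0.22 (adjusted p = 0.0369). The authors' deposited table lists Lsm6 at 0.33.

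Per length, the messages of 1 ring were far from equal. In TPM, the deposited unit that is corrected for length, the Sm messages ran from 359 for Snrpd1 to 931 for Snrpe in the eluates and from 290 for Snrpb to 971 for Snrpe in the pellets. Lsm messages ran from 27.7 TPM for Lsm1 to 897 TPM for Lsm7 in the eluates and from 24.3 to 727 TPM in the pellets. The spread within the Sm ring was 2.59-fold in the eluates and 3.35-fold in the pellets, and Snrpb, the lowest in the pellets, had 473, 456 and 459 TPM in eluates 1 to 3 and 341, 270.3 and 258 TPM in pellets 1 to 3. In the pellets Snrpg, Snrpd1 and Snrpd3, at 337, 338 and 338 TPM, did not differ beyond their spread.

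**Figure D2:**
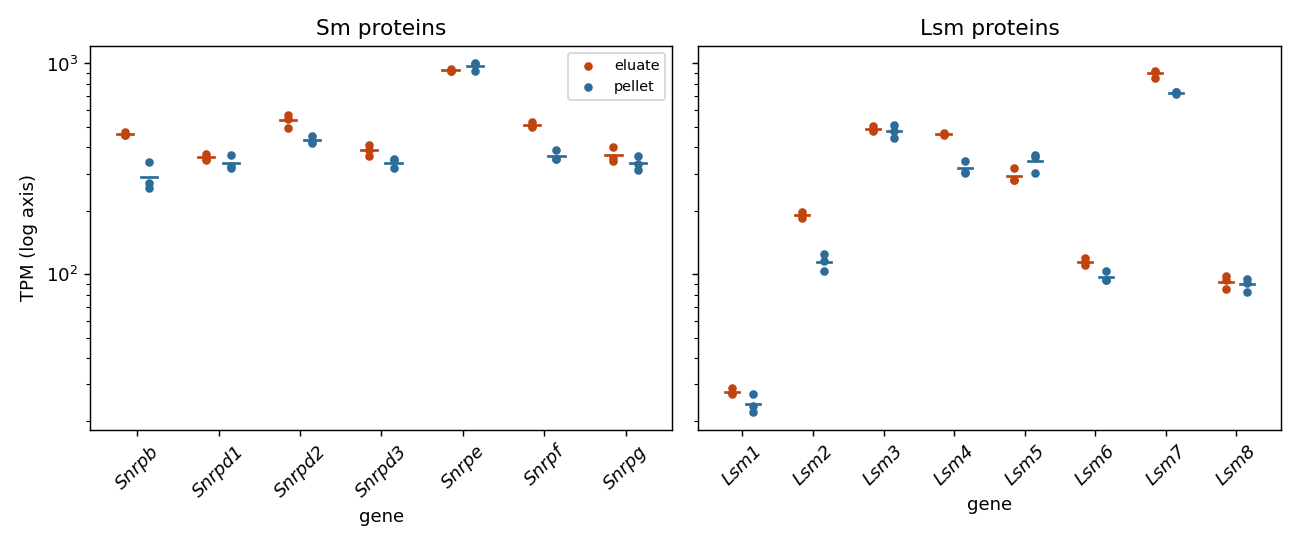
TPM on a log axis for each Sm message (left) and Lsm message (right), with 3 eluates left of 3 pellets for each gene and bars at the means. Snrpb, Snrpf, Lsm2 and Lsm4 are higher in every eluate, whereas Snrpe and Lsm3 overlap.

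The U1-specific messages split. Snrpa, for the A protein, had 241, 224 and 218 CPM in eluates 1 to 3 and 133, 114 and 126 CPM in pellets 1 to 3. Snrpc, for the C protein, had 251, 240.3 and 229 CPM in eluates against 139.9, 133 and 115 CPM in pellets. Both were well separated, with log2 fold changes of 0.87 ± 0.075 (adjusted p = 2.84e-07) and 0.89 ± 0.077 (adjusted p = 3.33e-07), the 2 highest of all 41. Snrnp70, for U1-70K, which binds the first stem-loop of U1 RNA, had 169.7, 155 and 139 CPM in eluates against 176, 178 and 155 CPM in pellets. It overlapped, at -0.14 ± 0.082 (adjusted p = 0.176; interval -0.32 to 0.04), and its GC content was 58.5%.

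The 11 messages for U2 proteins covered nearly the whole range, with 5 higher, 4 lower and 2 not passing. Sf3b1 encodes the scaffold of SF3b that clamps the branch site, and its message had 98.1, 98.1 and 80.6 CPM in eluates 1 to 3 and 207, 253 and 249 CPM in pellets 1 to 3. Every eluate lay far below every pellet, and the log2 fold change was -1.35 ± 0.095 (adjusted p = 1.7e-07). Sf3b4, an RNA-binding subunit, had 219, 196 and 201 CPM in eluates against 134, 106 and 116 CPM in pellets, a change of 0.79 ± 0.084 (adjusted p = 2.27e-06). Sf3b5, whose sequence is printed above, had 218, 220.2 and 231 CPM in eluates against 154, 140.5 and 131 CPM in pellets. Its groups were separate at 0.65 ± 0.072 (adjusted p = 2.63e-06). The annotated transcript of Sf3b5 has 3841 nt and a GC content of 45.5%, around a short coding part with 61.3% GC.

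Sf3b3, a large propeller protein, was lower at -0.24 ± 0.076 (adjusted p = 0.0131), a call lost without eluate 2 or 3 (adjusted p = 0.0531 and 0.0906). Sf3b2, a further SF3b subunit, did not overlap between groups with a mean of 227 ± 13.8 CPM for eluates and 255 ± 17.3 CPM for pellets, but did not pass (-0.17; adjusted p = 0.0576). Sf3b6, also of SF3b, was at 0.02 with a 95% interval of -0.14 to 0.19. In SF3a, the other U2 subcomplex, Sf3a2 was higher at 0.74 ± 0.109 (adjusted p = 0.0001), Sf3a1 was higher at 0.30 ± 0.074 (adjusted p = 0.00271) and Sf3a3 was lower at -0.24 ± 0.081 (adjusted p = 0.0225). The call of Sf3a3 was lost without eluate 2 or 3 or pellet 2 or 3 (adjusted p = 0.0585, 0.131, 0.0756 and 0.0896). Sf3a1 was the only long factor among the higher calls, at 187, 173 and 159 CPM in eluates against 146, 140.3 and 134 CPM in pellets.

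Snrpa1 and Snrpb2 encode the A' and B'' proteins, which bind U2 RNA as a pair. Snrpa1 rose by 0.42 ± 0.065 (eluates 213 ± 3.83 and pellets 159 ± 7.38 CPM; adjusted p = 6.61e-05). Snrpb2 was lower at -0.35 ± 0.126 (adjusted p = 0.0381), with 70.8, 82.9 and 65.3 CPM in eluates against 75.2, 102 and 102 CPM in pellets. Its groups overlapped through pellet 1, and the call was lost without eluate 1 or 3 or pellet 2 or 3 (adjusted p = 0.119, 0.129, 0.153 and 0.121). The transcripts differ in GC content, at 50.4% for Snrpa1 and 39.3% for Snrpb2. Both U2AF messages, for the factor that recognises the polypyrimidine tract and the 3' splice site, were higher. U2af2 rose by 0.55 ± 0.067 (eluates 531 ± 19.4 and pellets 363 ± 23.8 CPM; adjusted p = 6.77e-06) and U2af1 by 0.19 ± 0.065 (adjusted p = 0.0251). The call of U2af1 was lost without eluate 1 or 2 or pellet 3 (adjusted p = 0.0739, 0.0991 and 0.132).

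Of the 5 messages for U5 proteins, 4 were lower. Snrnp200, the helicase BRR2 that unwinds U4 from U6, had 93.9, 77.9 and 79.3 CPM in eluates 1 to 3 and 167, 149 and 156 CPM in pellets 1 to 3. Its groups were widely separate at -0.91 ± 0.083 (adjusted p = 4.79e-07). Prpf8, the scaffold at the heart of the catalytic centre, has the longest coding sequence of the members, 7008 nt, and had 154, 130.2 and 131 CPM in eluates against 236, 183 and 175 CPM in pellets. It did not overlap, at -0.52 ± 0.113 (adjusted p = 0.00277). Prpf6, which bridges U5 and U4/U6, was at -0.50 ± 0.091 (adjusted p = 0.000244). Eftud2, the GTPase of U5, was at -0.22 ± 0.086 (adjusted p = 0.044), and its call was lost without eluate 2 or 3 or pellet 1 (adjusted p = 0.132, 0.206 and 0.0913). Snrnp40, a repeat protein of U5 with a coding sequence of 1077 nt, was higher at 0.34 ± 0.064 (eluates 220.0 ± 2.69 and pellets 174 ± 7.33 CPM; adjusted p = 0.000395).

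Among the proteins of U4/U6, Prpf3 was lower at -0.41 ± 0.084 (eluates 44.7 ± 2.49 and pellets 59.6 ± 2.74 CPM; adjusted p = 0.000664) and Prpf4 at -0.24 ± 0.073 (adjusted p = 0.0113). Prpf31 was at 0.15 with an interval of -0.02 to 0.32, and it was called higher without pellet 1, at 0.17 (adjusted p = 0.0466). Of the Prp19 complex, which stabilises the activated spliceosome, Cdc5l had 122, 113 and 99.2 CPM in eluates 1 to 3 and 196, 243 and 227 CPM in pellets 1 to 3. It was lower at -0.99 ± 0.092 (adjusted p = 9.39e-07). Prpf19, the ubiquitin ligase that names the complex, had 186, 178 and 179.9 CPM in eluates against 189, 168 and 181 CPM in pellets. It overlapped fully, at 0.02 ± 0.068 (adjusted p = 0.858; interval -0.13 to 0.16).

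**Figure D3:**
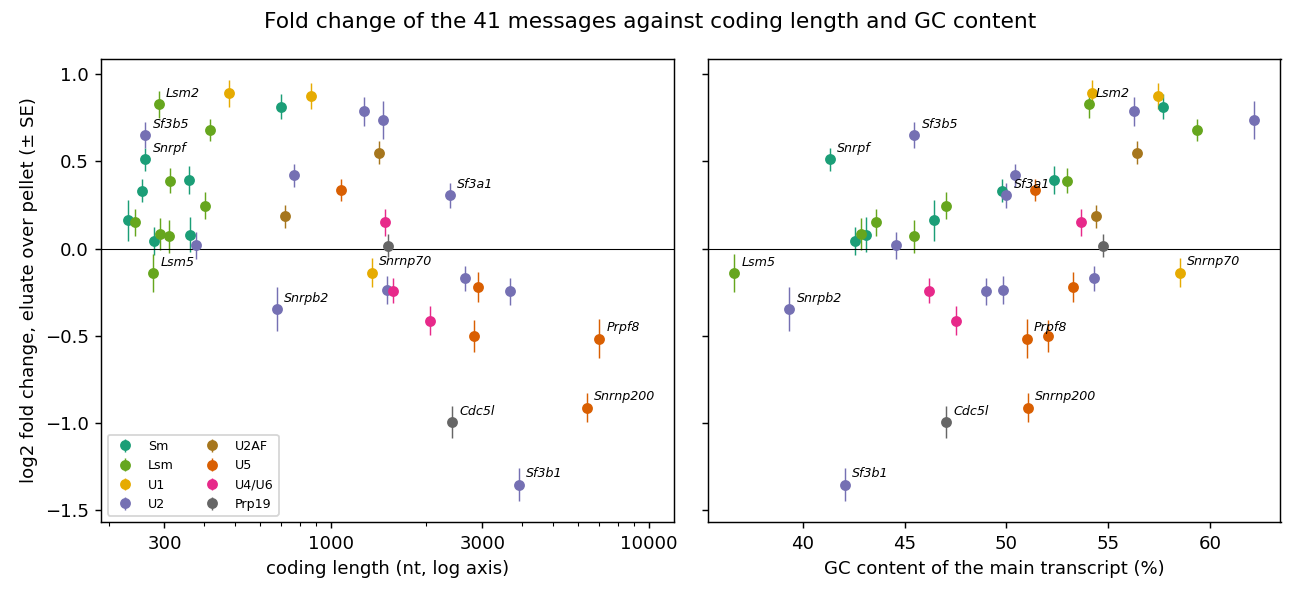
Log2 fold change of eluate over pellet (± SE) for each of the 41 messages against coding length on a log axis (left) and against GC content (right), coloured by particle. Members over 1500 nt lie below 0 with the exceptions of Sf3a1 and Prpf19, and the shortest members spread from -0.14 for Lsm5 to 0.83 for Lsm2.

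Across the 41 messages Spearman's rho between log2 fold change and GC content of the main transcript was 0.45, and between log2 fold change and coding length -0.53. These are descriptions across genes measured in the same 6 libraries, which are not independent replicates. Within the 15 Sm and Lsm messages rho was 0.76 with transcript GC, 0.89 with GC of the coding part and 0.31 with coding length. Divided at 50% GC, a limit chosen after the values were seen, the 5 Sm and Lsm messages above it (Snrpb, Snrpd2, Lsm2, Lsm4 and Lsm7) ran from 0.39 to 0.83 and the 10 below it from -0.14 to 0.51. Within the 13 long factors rho was 0.76 with coding GC and -0.57 with coding length. Over all nuclear coding genes, 52.7% of those over 55% GC were higher, and 73.7% of those under 45% GC were lower. Of the 9 members under 45% GC, 2 were lower (Sf3b1 and Snrpb2), 1 was higher (Snrpf) and 6 did not pass.

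With each library's smooth trend in GC content and transcript length removed, 18 members were higher and 12 lower, against 12.7% and 23.1% of all genes. Of the 29 members called before, 17 kept their call and direction, 3 were called the other way and 9 were no longer called, and 10 others were called only there. Sm and Lsm messages had 9 higher and 0 lower there (median 0.31), and long factors 2 higher and 9 lower (median -0.35). The difference between these medians was 0.66, against 0.49 before. With GC alone removed, 15.9% of all genes were higher and 25% lower (median -0.07). In that fit 13 of the 15 Sm and Lsm messages were higher and 0 lower (median 0.47), and 11 of the 13 long factors were lower and 1 higher (median -0.45). These values were not free of GC content. Spearman's rho between GC content and the change in that fit was -0.85 for Sm and Lsm messages and -0.42 for all 41 members. The 10 Sm and Lsm messages up to 50% GC went from a median of 0.12 to 0.64. The 5 above it went from 0.68 to 0.21.

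Single messages moved much more than the group medians. Lsm5 was called higher at 0.62 (adjusted p = 3.49e-07) with the GC and length trend removed, Snrpb2 at 0.37 (adjusted p = 5.85e-05) and Prpf4 at 0.22 (adjusted p = 0.00965). Snrpe, Snrpd1, Lsm6, Lsm8 and Sf3b6 were called higher only with that removal, at 0.34, 0.31, 0.35, 0.32 and 0.17 (adjusted p of 0.0234 or less). Sf3b2 was called lower only with it, at -0.40 (adjusted p = 3.86e-06). U2af1 was called lower there at -0.33 (adjusted p = 2.54e-05), Prpf19 at -0.33 (adjusted p = 2.85e-05), Prpf31 at -0.20 (adjusted p = 0.0215) and Snrnp70 at -0.70 (adjusted p = 3.75e-06). Lsm4 and Lsm7 were no longer called, at -0.05 and -0.04, nor were Snrpd2, Snrpd3, Sf3a2, U2af2, Snrnp40, Sf3b3 and Prpf8, at 0.04, 0.11, 0.15, 0.14, 0.07, -0.04 and -0.26. Sf3b5 at 1.05 and Snrpf at 0.87 were higher than before, and Cdc5l at -0.78, Snrnp200 at -0.68 and Sf3b1 at -0.50 stayed lower. Lsm2, Snrpa, Snrpc, Snrpb and Sf3b4 stayed higher at 0.31, 0.28, 0.36, 0.17 and 0.34, all smaller than without the removal. The removal used the GC content and length of each gene's main transcript. For Sf3b5 this has 3841 nt, with 3280 nt before the coding part. For Snrpd3 it has 442 nt, while the transcript of 3036 nt held more counts (283 against 60.2 CPM in the eluates). How far the values depend on this choice was not tested.

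**Figure D4:**
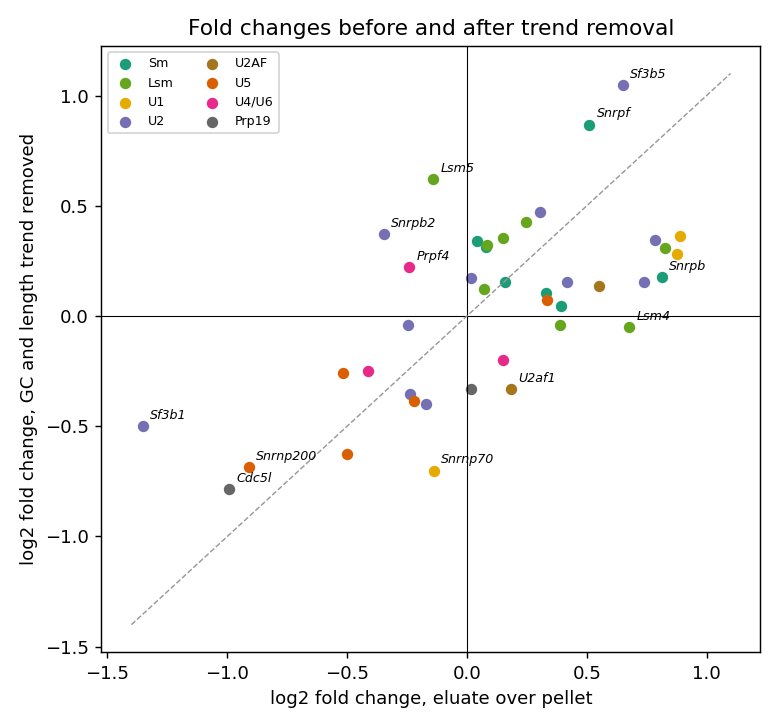
Log2 fold change of each message after removal of each library's trend in GC and length (vertical axis) against the value without removal (horizontal axis), coloured by particle, with a dashed line of equality. Cdc5l and Snrnp200 lie near the line, Sf3b5 and Snrpf above it, and the GC-rich messages of Lsm4 and Snrpb below it.

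In the files 75 transcripts of the members were quantified, all protein-coding, and 62 passed the count filter. Of these, 21 were higher and 6 lower, where 11.8% and 14.3% of all 19684 transcripts tested were. The 3 transcripts of Snrpa, which share a coding length of 864 nt, were at 0.84, 0.95 and 0.85, and the pair of U2af2 at 0.51 and 0.68. Lsm6 has 3 transcripts with the same coding length and unlike untranslated parts, and the one of 541 nt was at 0.32, that of 2107 nt at 0.15 and that of 3792 nt at 0.03, none of them called (adjusted p = 0.153, 0.237 and 0.808). Estimates for transcripts that share most of their sequence can exchange reads, and Prpf3-207, at -1.83, had an SE of 1.22.

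Processed copies of members can take some of their reads. At least 50% of the 31-base subsequences of Lsm7, Sf3b4 and U2af1 also occur in Gm10146, Gm7935 and Gm10232, which held a mean of 38.1, 10.9 and 49.5 counts in the eluates and 26.0, 2.80 and 45.1 counts in the pellets. Adding these copies to their members changed no member's call. The authors' deposited table, which lists genes with an adjusted p under 0.05, holds 26 of the 41 members, all with the sign found here. Of these, 17 are higher and 9 lower, and their log2 fold changes are within 0.18 of those found here. It leaves out 5 members called here, Lsm1, Snrpb2, Sf3a3, U2af1 and Prpf4, and lists 2 that did not pass here, Lsm6 and Sf3b2.

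Other genes of the pathway, from 8 lists of 104 different genes, had 31 higher, 42 lower and 31 not passing, with a median log2 fold change of -0.07. That was 29.8% higher and 40.4% lower, against 24.5% and 28.2% of all genes tested. The same all-gene shares are the background for each list below. Among 11 spliceosome helicases 2 were higher and 7 lower (median -0.29). Their coding sequences had 1287 to 4446 nt, and 44.6% of all nuclear coding genes of 1500 nt or more were lower. Dhx15, which releases the lariat, was at -1.05 ± 0.079 (eluates 110.2 ± 7.35 and pellets 228 ± 20.1 CPM), and Ddx39b, which U2 binding needs, at 0.47 ± 0.072. Of 21 genes of snRNP assembly 6 were higher and 9 lower (median -0.10), with Tgs1, which methylates the cap of snRNAs, at -1.42 ± 0.106 and Smn1, the core of the SMN complex that loads Sm rings, at 0.49 ± 0.080. Of 12 other tri-snRNP proteins 3 were higher and 3 lower (median -0.03), with the kinase gene Prpf4b at -1.25 ± 0.108 and the small U5 protein gene Txnl4a at 0.59 ± 0.074. Among 18 proteins that join U1 or U2, 4 were higher and 9 lower (median -0.09), with Sf1, the branch point binding protein, at 0.50 ± 0.072.

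In 24 further genes of the Prp19 complex and the catalytic steps 8 were higher and 10 lower (median -0.09), with Crnkl1 at -1.35 ± 0.120 and Ppil1 at 0.55 ± 0.067. Of 9 genes of the minor spliceosome, which removes a rare class of introns, 2 were higher and 3 lower (median 0.05), with Zmat5 at 0.73 ± 0.111 and Snrnp48 at -0.86 ± 0.148. The exon junction complex had 3 of 5 higher and none lower (median 0.27), with Eif4a3 at 0.40 ± 0.070. The 5 genes of the U7 particle and Lsm relatives had 3 higher and 1 lower (median 0.31), with Lsm10 at 0.70 ± 0.134 and Lsm14a at -0.27 ± 0.076. Each gene named from these lists had an adjusted p of 0.00722 or less.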

How the data were processed

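Per the submitters' processing notes, the tools were Salmon 1.10.3, STAR 2.7.11b, cutadapt 4.7 and DESeq2 1.44.0, with build GRCm39. Per the file headers, the authors' Salmon files give an estimated count and TPM per transcript with lengths. The authors' deposited comparison table gives a mean signal of normalized counts, log2 fold changes, a Wald score, and p-values before and after adjustment. The sources used here give neither its design nor the annotation release.

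Transcript identifiers were looked up in GENCODE mouse release 21 (GRCm38, used for names, lengths and sequence): 76858 of 84226 matched, and the others held 1.63% to 2.35% of counts. All 75 member transcripts had the same length in both. Matched counts of the 26 members in the authors' deposited table were 0.987 to 1.002 times its values. Estimated counts were summed per gene, rounded and tested with edgeR 4.0.16 in R 4.3.3 (robust quasi-likelihood fit, TMM factors, default count filter, adjusted p under 0.05 over 13231 genes). The SE is the size of the change over the root of its F statistic. Intervals came from limma 3.58.1 (voom), and DESeq2 1.42.0 was an alternative. Trend removal fitted splines with 5 degrees of freedom per library. The main transcript of a gene has its highest mean TPM. Mean chi-square values per gene were 3.01 to 16.8 within groups and 30.5 to 74.5 between them, and each library was taken as its own sample. The edgeR fit and the removal of a GC trend alone were tested on simulated data, and the joint removal of GC and length was not. Python 3.11.15 with pandas 2.3.3 made tables and plots. All 41 members are named, and in each other list the gene with the smallest p and that with the smallest p the other way, of which 1 is not reported here. Members, lists and alternatives were chosen with earlier results of these data known.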

Additional observations from a re-analysis of the deposited data

How the results depend on the processing

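With TMM scaling 18 members were higher and 11 lower, and the medians of Sm and Lsm messages and of long factors differed by 0.49. All 41 calls held with DESeq2's size factors in edgeR, without a count filter, with a filter at 5 CPM, with voom and with copies added. DESeq2 gave 18 higher and 10 lower, limma on log2(TPM + 0.5) 15 and 10, and an offset for effective length 19 and 11. Upper-quartile scaling left 6 members lower. Its medians were 0.094 for all genes, 0.34 for Sm and Lsm messages, -0.15 for long factors and 0.51 for the remaining 13 members. With TMM scaling these medians were 0.0035, 0.25, -0.24 and 0.42, and the cause was not tested. An adjusted p under 0.01 left 6 lower, and a log2 change beyond 0.5 left 10 higher and 5 lower, both being stricter limits. Leaving out 1 library gave 16 to 21 higher, 7 to 11 lower and a difference of 0.49 to 0.55, and leaving out both libraries of a number 16 to 18, 6 to 14 and 0.48 to 0.58. The difference was 0.92 with the GC trend removed and 0.66 with GC and length removed, also with the replicate block. With the GC trend removed, the changes of the Sm and Lsm messages ran against GC content (rho -0.85). Removing GC and length changed the sign of Lsm5 (0.62), Snrpb2 (0.37), U2af1 (-0.33), Prpf4 (0.22), Prpf31 (-0.20) and Prpf19 (-0.33), all called there. Lsm4 (-0.050, adjusted p = 0.509) and Lsm7 (-0.040, adjusted p = 0.645) also changed sign but were not called there. Under the replicate block Lsm4 was at -0.049, Lsm7 at -0.039 and the other 6 as before. Removing GC alone changed the sign of Lsm5 (0.91), Snrpb2 (0.51) and Prpf19 (-0.30), all called in that fit. U2af1 (-0.11, adjusted p = 0.142), Prpf4 (0.055, adjusted p = 0.557) and Prpf31 (-0.11, adjusted p = 0.216) changed sign there without a call. The cause was not tested. The libraries share replicate numbers, and deviations of same-numbered libraries from their group means correlated at 0.0698, 0.151 and -0.0102. Those of unlike numbers correlated at -0.176 to 0.111. With 3 libraries per group this cannot decide whether a number marks 1 shared pellet, and the labels do not say. The main fit has no block, so it leaves out any such pairing. With the replicate block 18 members were higher and 12 lower, since Sf3b2 was then called (-0.17, adjusted p = 0.027), and no other member's call changed.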
